A study of Homo sapiens with 12 samples.

Results

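HEK293T cells are an established line from human embryonic kidney, with the large T antigen of SV40. Its m6A-seq and CLIP-seq libraries were examined for the small structured RNAs that build the spliceosome and related particles. The members were all clusters of the authors' FTO list whose gene symbol named a U-type small nuclear RNA, 7SK, 7SL, the RNA of RNase MRP or RNase P, a Y RNA, a vault RNA or telomerase RNA, with the TRMT10A sites of the same genes. This gave 149 distinct FTO clusters of 9579 in the list, with 21749 of its 800472 conversion events. A cluster is a stretch of transcript covered by crosslinked reads, and a conversion event is a base change that the authors counted within it. The kind of base change is not named per the file headers.

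The CLIP libraries came from cells that overexpressed FTO (1 sample) or TRMT10A (3 samples), were crosslinked by ultraviolet light, treated with RNase T1 and recovered on anti-Flag beads. The m6A-seq libraries came from cells given siRNA against TRMT10A and cells given control siRNA, each with an immunoprecipitate and an input (2 samples in each of 4 groups). The FTO list holds 1 library, the TRMT10A list was taken as pooled over its libraries, and the m6A table holds differential peaks only. Replicate spread therefore could not be measured for any value below, read depth is unknown, and no difference was tested. No CLIP library of an untagged or unrelated protein is among the samples, so the values have no background measured in the same way. Event counts are not divided by the abundance of an RNA, and a cluster with more events may stand on a more abundant RNA.

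Spliceosomal small nuclear RNAs form the core of the particles that remove introns: U1 pairs with the 5′ splice site, U2 with the branch site, and U4, U5 and U6 join them as the tri-snRNP. Most of these RNAs are made by RNA polymerase II and carry a trimethylated cap and an Sm ring, whereas U6, 7SK, 7SL and the RNAs of RNase MRP and RNase P, and the Y and vault RNAs, are made by RNA polymerase III and end in a run of uridines. FTO is a demethylase of m6A and of m6Am, the methylated form found beside the cap and in small nuclear RNAs. TRMT10A methylates a guanosine of tRNAs.

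Ribosomal RNA took 684400 events of the FTO list and was set aside. Of the remaining 116072 events, small structured RNAs held 18.7% (95% Wilson interval 18.5 to 18.96%) with 1.63% of the clusters (1.39 to 1.92%). With only the copy of most events of each RNA type, an alternative chosen after seeing the data, the share of events was 6.31%. Intervals here cover counting error only and take events and clusters as independent. Near-identical copies of U1 and U2 repeat the same RNA in these counts, so that condition does not hold. The median was 35 events per cluster in small structured RNAs, against 8 in the 401 snoRNA and scaRNA clusters and 3 in all 8968 other clusters outside ribosomal RNA. Small structured RNAs were taken by symbol alone, but snoRNAs and scaRNAs by symbol or position, here and in the next counts. The 24 clusters in small RNA spans that are listed under a host gene (median 5 events) thus count among the others. Taken by position in a gene span, small structured RNAs had 140 clusters and a median of 11 events. That set adds these 24 clusters and leaves out the 33 U1 and U2 clusters that have no span. At least 100 events were found in 33 of 149 clusters of small structured RNAs (22.1%, interval 16.2 to 29.5%), against 32 of 401 snoRNA and scaRNA clusters (7.98%, interval 5.71 to 11.05%) and 83 of the 8968 (0.926%, interval 0.747 to 1.15%). Of the 20 clusters with the most events outside ribosomal RNA, 6 lay in small structured RNAs. These were a cluster of RNU5D-1 (1690 events) and clusters of near-identical U1 copies (992 to 1912 events). Median cluster width was 26 bases, against 30 in the rest. The list placed all 149 clusters in its UTR class, the class it gives to exons of noncoding RNAs.

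By RNA type, U1 held 30 clusters and 13212 events, or 60.7% of the events of all small structured RNAs (interval 60.1 to 61.4%). This share rests on the sum over near-identical copies. With only the copy of most events of each RNA type, U1 had 1985 of 6355 events (31.2%) and U5 1779 (28.0%). In the sums, U5 followed with 13 clusters and 3218 events, U2 with 37 clusters and 2603 events, RNase MRP RNA with 714 events and RNase P RNA with 475. The place of U2 depended on its copies: it had 279 events in the copy with the most and 538 when only clusters within a gene span were taken, both below RNase MRP RNA. Y RNAs had 304 events, 7SL 302, 7SK 273, U11 249 and U12 240. The low end was U6 with 60 events in 17 clusters, vault RNAs with 46, U4 with 37, U4atac with 7, U7 with 6 and telomerase RNA with 3. Without pseudogenes U6 had 24 events. How reads were divided among its near-identical copies is not stated in the sources at hand. The 10 clusters with the most events held 64.1% of all events of the class, and 9 of them were U1 clusters. Of the 58 genes of these names in the gene table that are not annotated as pseudogenes, 41 had a cluster in their span. Those without one were mostly variant U1 genes (RNVU1-3, RNVU1-4, RNVU1-6, RNVU1-8, RNVU1-15 and others of that family), next to RN7SL3, RNU6ATAC and VTRNA1-3. The rest were RNU2-63P and, annotated as snoRNAs, RNU105B and RNU105C. None of these genes is named in the FTO list, and whether the authors' annotation held them is not stated in the sources at hand.

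**Figure D1:**
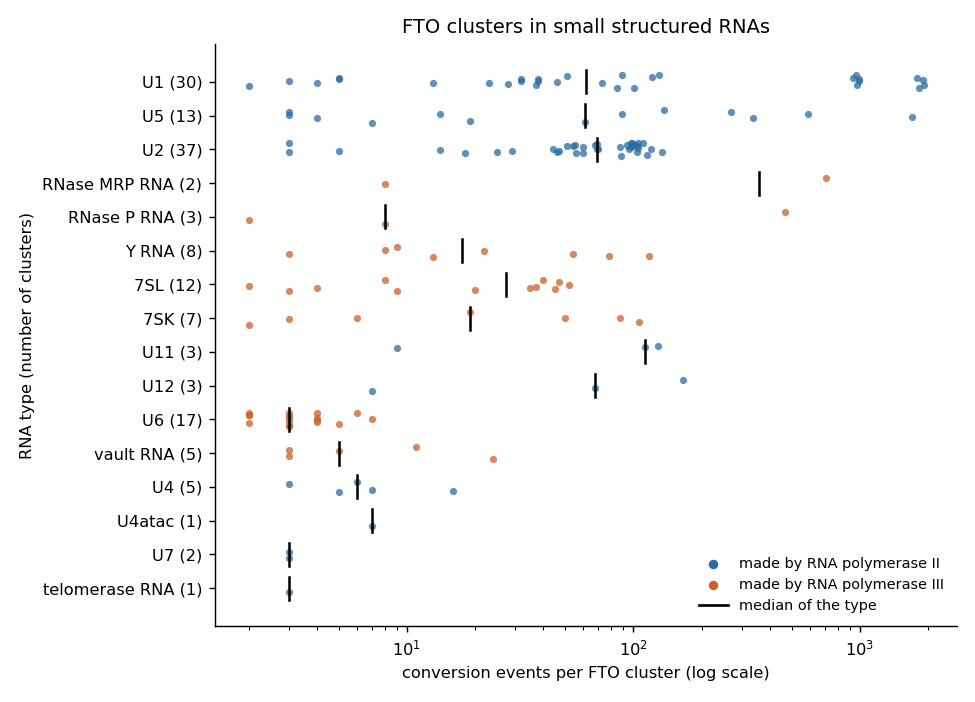
Conversion events per FTO cluster (log axis) for each RNA type, with types in order of their summed events. Each point is 1 cluster and the black bar the median of its type. U1 has clusters up to 1912 events, while the U6 clusters lie between 2 and 7.

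U1 clusters lay at the same place in copy after copy. Of 13 U1 genes with a span in the gene table, 12 had a cluster that overlapped nucleotides 96 to 118, counted from 1 at the 5′ end of an RNA of 164 nucleotides. In 7 full copies and in RNVU1-7 the cluster ran exactly over these bases. In hg38 the cluster of RNU1-4 is on chromosome 1 from 16740611 to 16740633, plus strand, and that of RNU1-1 on chromosome 1 from 16514168 to 16514190, minus strand. The list repeats the clusters of 8 U1 copies under each of 7 symbols, and each cluster is counted once here.

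These 8 copies fell into 2 levels by the strand they lie on. The central cluster had 1912 events in RNU1-4, 1891 in a copy on chromosome 1 from 146376902 that has no span in the gene table, 1815 in RNU1-2 and 1791 in RNU1-27P, all on the plus strand. It had 992 events in RNVU1-18, 989 in RNU1-3, 974 in RNU1-1 and 957 in RNU1-28P, all on the minus strand. The medians were 1853 and 981.5, a ratio of 1.89. These are values of near-identical copies in 1 library, and the copies are not replicates of a strand. RNVU1-7, also on the minus strand and listed under its own symbol, had 935 events at the same nucleotides. Clusters at the 3′ end of U1 showed the same split, with 73 to 101 events in the 4 plus-strand copies and 23 to 38 in the 4 minus-strand copies. The copies are nearly identical, and how the authors divided reads among them is not stated in the sources at hand, so the sum over copies and the value of 1 copy are both uncertain. Whether the strand itself sets the level was not tested.

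**Figure D2:**
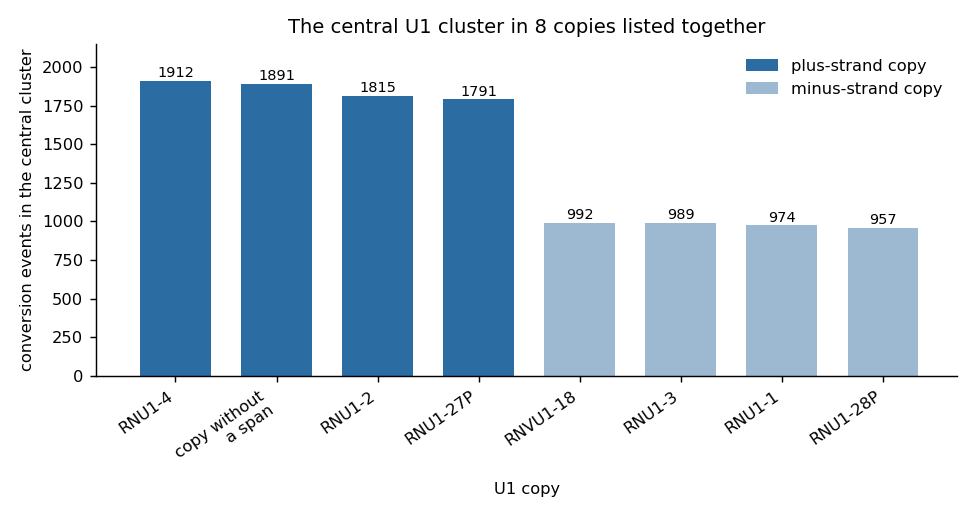
Conversion events in the central U1 cluster (bars from 0) for the 8 U1 copies that the list gives together, plus-strand copies left and minus-strand copies right. Plus-strand copies hold 1791 to 1912 events and minus-strand copies 957 to 992.

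The other U1 clusters were small. A cluster near nucleotides 49 to 66 had 32 to 51 events in 4 of the 8 copies, RNU1-1, RNU1-2, RNU1-27P and RNU1-28P, and 4 or 5 events in RNVU1-1 and RNVU1-2. Of the variant U1 genes with a cluster at the central position, RNVU1-18 and RNVU1-7 were at the level of the minus-strand copies (992 and 935 events). The other variants were lower there and lay outside the 2 levels by strand. On the minus strand RNVU1-1 had 130 events, RNVU1-19 121 and RNVU1-2 13, and on the plus strand RNVU1-14 had 3. RNVU1-17 had no cluster there and a single one, of 32 events, over its last 18 nucleotides.

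U2, which pairs with the branch site, had a flatter profile than U1. The RNU2-1 array on chromosome 17 contributed 10 units with 3 to 5 clusters each and 197 to 279 events per unit (median 248). No single U2 cluster passed 134 events. In the unit that has a span, RNU2-1, the clusters were at nucleotides 1 to 55 (115 events), 75 to 95 (44) and 107 to 169 (51). RNU2-2, on chromosome 11 and listed as RNU2-2P, had 99 events at nucleotides 62 to 88, 104 at 112 to 143 and 5 at 144 to 169. The other 9 units have no span in the gene table, so their clusters have no position here.

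U4 and U6 pair with each other before the spliceosome is activated, and both were sparse. RNU4-2 had clusters of 7, 6 and 16 events at nucleotides 55 to 71, 80 to 110 and 121 to 148, and RNU4-1 had 3 and 5 events at nucleotides 55 to 71 and 118 to 147. The first cluster thus covered the same bases in both U4 genes. U6 had clusters of 2 to 7 events in 14 loci, 5 of them genes and 9 with pseudogene symbols, and RNU6-2, RNU6-9 and RNU6-3P had the most events with 7 each. Most U6 clusters were centred in the middle part when the RNA is cut into 3 equal parts (13 of 17). U6 copies are near-identical as well, so a given copy's value and the sum over U6 copies are both uncertain.

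U5, which contacts both exons at the splice site, held the largest cluster outside U1. RNU5D-1 had 1690 events on chromosome 1 from 44731086 to 44731111, minus strand, at 43 to 18 nucleotides from the 3′ end, counted from 1 at the last base. Its other cluster, at 91 to 75 nucleotides from the 3′ end, had 89 events. In RNU5A-1 and RNU5B-1 the order of these regions was the other way round. RNU5A-1 (chromosome 15, 65296051 to 65296167) had 336 events at 88 to 68 nucleotides from the 3′ end and 61 at 45 to 27. RNU5B-1 (chromosome 15, 65304677 to 65304793) had 587 events at 111 to 70 nucleotides from the 3′ end and 136 at 42 to 26. RNU5E-1 (chromosome 1, 11908152 to 11908272) had its 269 events at its first 34 nucleotides and 14 at the 3′ end, and RNU5F-1 had 2 clusters of 3 events. The 5 U5 genes are variants of one RNA that differ in sequence, and their summed events ranged from 6 in RNU5F-1 to 1779 in RNU5D-1.

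The minor spliceosome, which removes a small class of introns, was represented by U11, U12 and U4atac. RNU11 (chromosome 1, 28648600 to 28648734) had 128 events at nucleotides 104 to 134 of 135, 112 at 53 to 87 and 9 at 10 to 52. RNU12 (chromosome 22, 42615244 to 42615393) had 165 events at nucleotides 80 to 154, of which the last 4 lie past the annotated end, then 68 at 42 to 69 and 7 at 11 to 27. RNU4ATAC had 1 cluster of 7 events, and RNU6ATAC had none in the list analysed. U7, which processes histone mRNA ends, had 2 clusters of 3 events.

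**Figure D3:**
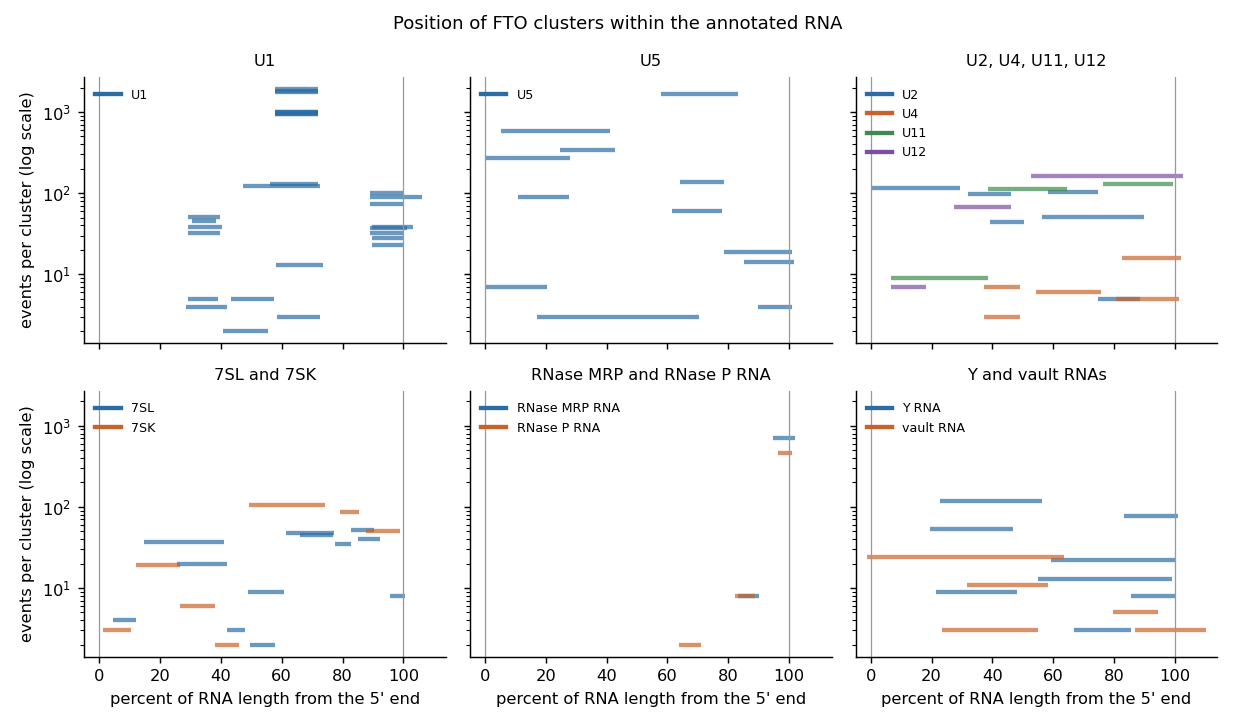
Position of FTO clusters along the RNA as percent of its length (0 is the annotated 5′ end, 100 the 3′ end), against conversion events per cluster (log axis). Each bar is 1 cluster and spans its width. U1 bars stack at the same central place and at the 3′ end, and the highest bars of RNase MRP and RNase P RNA sit at the 3′ end.

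RNase MRP and RNase P are endonucleases that process ribosomal and transfer RNA, and both RNAs had nearly all of their events at the 3′ end. RMRP had 706 of its 714 events in a cluster on chromosome 9 from 35657745 to 35657763, minus strand, over the last 14 nucleotides and 5 bases past the annotated end. RPPH1 had 465 of its 475 events in a cluster on chromosome 14 from 20343068 to 20343082, minus strand, over its last 12 nucleotides and 3 bases past the end. The other clusters of both RNAs held 8 events or fewer.

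Y RNAs bind the Ro protein, and all but RNY5 had a cluster with the same start point. Clusters began at nucleotide 23 in RNY1 (54 events), RNY3 (9) and RNY4 (117). RNY1 also had 22 events at nucleotides 68 to 113 and RNY3 13 at 57 to 101. All 4 Y RNA genes lie on chromosome 7. RNY5 had a single cluster, of 78 events, at its 3′ end. Among genes with vault RNA symbols, VTRNA1-2 had 24 events over nucleotides 1 to 56 (the cluster starts 1 base before the annotated gene). VTRNA2-1 had 11 and 5 events, and VTRNA1-1 had 3 and 3. VTRNA1-3 had no cluster in the list analysed. TERC, the template RNA of telomerase, had 1 cluster of 3 events.

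7SK holds the elongation factor P-TEFb inactive, and its gene RN7SK (chromosome 6, 52995620 to 52995951) had 7 clusters along 332 nucleotides. The highest were 106 events at nucleotides 164 to 246, 87 at 264 to 283 and 50 at 292 to 328, and the 5′ part had 2 to 19 events per cluster. 7SL is the RNA of the signal recognition particle. RN7SL1 (chromosome 14, 49586580 to 49586878) had 52 events at nucleotides 248 to 270, 47 at 185 to 231 and 37 at 45 to 123. RN7SL2 (chromosome 14, 49862551 to 49862849) had 45 at 198 to 230, 40 at 255 to 276, 35 at 233 to 247 and 20 at 77 to 126. RN7SL3 had no cluster in the list analysed. The 2 near-identical 7SL genes thus had clusters over overlapping stretches, with 145 events in RN7SL1 and 157 in RN7SL2.

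Over all 116 clusters that could be placed in a gene span, the cluster centre lay in the middle one of 3 equal parts of the RNA for 67.9% of events (interval 67.2 to 68.6%), in the 3′ part for 25.1% (24.4 to 25.7%) and in the 5′ part for 7.04% (6.68 to 7.43%). U1 decided this order, and without it the shares were 17.7%, 62.8% and 19.5%. The 62.8% rested largely on single clusters: of its 3986 events, 1690 were in 1 cluster of RNU5D-1, 706 in RMRP and 465 in RPPH1. The centre of the RNU5D-1 cluster lies at 70.6% of the RNA. The centre of the main U1 cluster lies at 64.9% of the RNA, close to the border of the middle and the 3′ part. Placed by the 3′ end of the cluster, 87.0% of events fell in the 3′ part, and placed by its 5′ end, 12.4%, so the leading part depends on the point of the cluster that is used. Clusters that came within 5 bases of the annotated 3′ end held 62.3% of events in RNAs made by polymerase III (interval 60.3 to 64.3%) and 5.03% in those made by polymerase II (4.69 to 5.38%). Here too single RNAs decided the size: without RMRP and RPPH1 the first share was 18.7%, and without U1 the second was 8.47%.

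TRMT10A sites were looked up in the same genes in 2 ways. By the symbol of the list, which names the nearest annotated start, 6 sites carried a member symbol. These were 1 each for RNVU1-19, RNVU1-15 and RNVU1-14 and 3 for RNU12, with peak heights of 17 to 31. The distance to the annotated start ranged from 3809 to 12089 bases, so none of the 6 lay inside the small RNA gene. By position, 143 of 5650 distinct TRMT10A sites (2.53%) lay in the spans of 121 genes, and all 121 are annotated as pseudogenes. All 143 sites also lay in the span of the host gene in the peak name, as did 98.8% of all sites of the list. Of the 53 placed FTO loci, 10 lie in the span of a protein-coding gene, and 1 of the 53, RNU6-16P, held a TRMT10A site. The list thus names sites mostly within host genes, and whether canonical small RNA genes outside host genes could enter it is not stated in the sources at hand.

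By number, most sites in pseudogene copies were in 7SL copies (65 sites in 54 copies) and 7SK copies (30 sites in 22 copies), followed by U6 (13), U1 (11), U2 (10), Y RNA (6), U4 and U5 (3 each), U7 and U6atac (1 each). Of all 2873 annotated pseudogenes of these RNAs, 4.21% held a site. The share was 7.89% of 684 7SL pseudogenes, 7.51% of 293 7SK, 7.32% of 123 U1, 13.2% of 68 U2, 10.3% of 29 U5 and 8% of 75 Y RNA pseudogenes, against 1.02% of 1277 U6 and 0.595% of 168 U7 pseudogenes. Median peak height of the 143 sites was 28, against 20 over the whole list, and 102 of 143 (71.3%) were above 20, against 45.5% of the whole list. The highest was in RN7SL674P, in an intron of GREB1 on chromosome 2 at 11584859, with a height of 123. Next came RN7SL49P in an intron of GPALPP1 (chromosome 13, 45002237 to 45002242, height 96), RNU1-11P in PHACTR1 (90 and 69), RN7SKP176 in the 3′ UTR of PLCG2 (87 and 51) and RNU2-6P in RUBCNL (85). Heights are the authors' scores and were compared within the list only. The annotation assigned 135 of the 143 sites to a repeat class of small RNA.

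**Figure D4:**
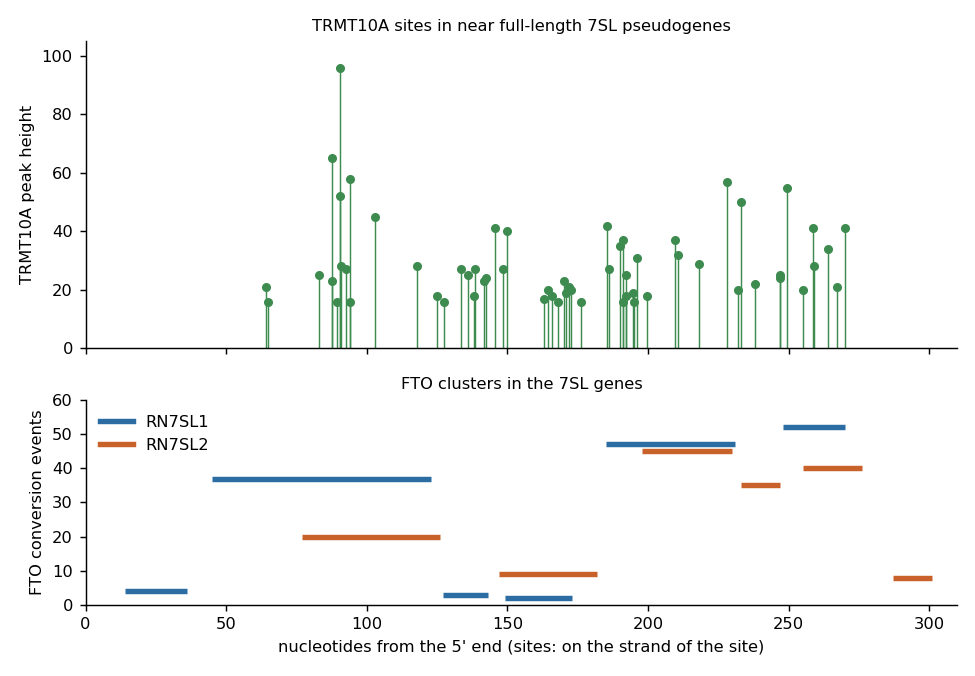
Upper part, peak height of TRMT10A sites in 7SL pseudogenes of 80 to 120% of the length of RN7SL1, by nucleotide on the strand of the site. Lower part, FTO clusters of RN7SL1 and RN7SL2, with bar length as width and height as conversion events. The TRMT10A sites spread from nucleotide 64 to 270.

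In 7SL copies close to full length, 61 TRMT10A sites spread between nucleotides 64 and 270 on the strand of the site (median 171), with 20 of them in nucleotides 151 to 200. The strand of each copy is not given in the gene table, so a copy that lies antisense to its host would be read from the wrong end. Of the 10 highest of these sites, 4 were centred at nucleotides 85 to 100 (RN7SL49P, RN7SL308P, RN7SL242P and RN7SL559P, with heights of 96, 65, 58 and 52). This window was chosen after the values were seen, and 9 of the 61 sites lay in it. In U6 copies the 12 sites in copies close to full length were centred between nucleotides 38 and 64.

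FTO clusters were also found in pseudogene copies, under the symbol of the host gene and therefore outside the members. There were 24 such clusters in 17 copies, with 666 events and a median of 5, and 21 were in introns by the list. The largest was in RNU1-34P, in an intron of FILIP1, with 364 events on chromosome 6 from 75473859 to 75473879, at nucleotides 16 to 36 on the strand of the cluster. Next came RNU2-6P with 81 events and RNU1-11P with 51, 23 and 11. Of these 17 copies, 15 also held a TRMT10A site (88.2%), which is 12.4% of the 121 copies with a TRMT10A site. For comparison, 4.21% of all 2873 pseudogenes held a TRMT10A site, and 8.13% of the 1377 that lie wholly within a protein-coding gene. Of those 1377, 617 are U6 pseudogenes (2.11% with a site), a type absent from the 17 copies. In the types of the 17 copies, the share within protein-coding genes was 23.5% for U1, 21.2% for U2 and 23.1% for U5. It was 15.1% for 7SK, 15.1% for 7SL and 6.67% for U4. The copies of the 17 without a TRMT10A site were RNU1-34P and RN7SL521P. In 9 of the copies a cluster and a site shared at least 1 base on the same strand: RNU1-67P (35 events, height 64), RNU1-11P (23 events, height 69), RNU2-4P (17 and 66), RNU1-19P (14 and 40), RN7SKP9 (4 and 70), RNU2-33P (3 and 50), RN7SL49P (2 and 96), RNU4-82P (2 and 34) and RNU5E-6P (2 and 59). The same held for the member RNU6-16P, in an intron of GRM5, with 3 FTO events (chromosome 11, 88612831 to 88612881) and a TRMT10A site of height 50 at 88612861. Both lists sample introns, and how often unrelated RNA would share bases was not tested here.

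Of the 2023 differential m6A peaks between TRMT10A knockdown and control cells, 0 were listed under a small structured RNA and 0 had a block in the span of such a gene or pseudogene. The m6A libraries were made from polyadenylated RNA, in which these RNAs are depleted, so the count says nothing of their methylation.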

How the data were processed

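FTO clusters were read from the deposited FTO table, which gives a count of conversion events per cluster, per the file headers. Repeated lines of a cluster (334 for members) were merged to 149. TRMT10A sites came from the deposited table, whose peak height is the authors' score. The authors' m6A table holds log2 fold changes of differential peaks, of which none was used, since no small RNA was listed. The build hg38 and DESeq2 are named in the submitters' processing notes, without version or role, and other steps are not given in the sources used here.

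Clusters were placed in RefSeq gene spans (GRCh38.p14), with at least 1 shared base, and positions were counted on the strand of the cluster. Of 149 clusters, 116 were placed. Sequences are not printed, because none of these RNAs is in the sequence tables used here. The placement step was tested on simulated data and recovered 200 of 200 planted positions. Positions were planted in the same spans by the same counting rule, so this checks the arithmetic only. It cannot show that a cluster was given to the right copy or read on the strand of the gene.

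Named genes followed a rule. In each RNA type these were the gene with the most events, the gene with the most clusters and up to 3 more genes. The 10 largest clusters and genes with a TRMT10A site were also to be named. Of the 121 genes with such a site, only some are named, chosen by peak height, position or overlap with an FTO cluster. Other genes were named after their values were seen. The members and lists were chosen with earlier results of these data known. Python 3.11.15, pandas 2.3.3, scipy 1.17.1 and matplotlib 3.10.9 were used.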

Additional observations from a re-analysis of the deposited data

How the results depend on the processing

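Counting every deposited line gave 334 clusters and 93771 events. A minimum of 10 events left 93 clusters with a median of 73 events, and a minimum of 3 events, or leaving out pseudogenes, kept the number of clusters, the events and the median of the whole class within 1.5 times. Of single RNA types, U6 had 24 events without pseudogenes, against 60 with them. Taking only the copy with the most events of each RNA type gave 44 clusters, 6355 events and a median of 19.5. Assignment by position gave 140 clusters and a median of 11, and the strand of the genes could not be used for it. It added 24 clusters listed under a host gene and left out 33 U1 and U2 clusters without a span. The share of events outside ribosomal RNA was 2.72% with ribosomal RNA in the denominator, 28.0% without intronic clusters of protein-coding genes, 23.7% at 10 events or more and 16.6% without pseudogenes. With only the copy of most events per RNA type, an alternative chosen after seeing the data, it was 6.31%. The share of clusters in the 3′ part (of 3 equal parts of the RNA) was 37.1%, against 27.6% by the 5′ end of the cluster, 58.6% by its 3′ end and 46.8% at 10 events or more. The share of events there was 25.1%, against 12.4% by the 5′ end, 87.0% by the 3′ end, 29.3% without pseudogenes and 62.8% without U1, the last chosen after seeing the data. TRMT10A sites numbered 6 by symbol, 143 by position, 143 within 50 bases and, by symbol, 3 above the median height. The cause of these changes was not tested beyond what the settings themselves leave out. No paired analysis was possible because the m6A table holds no values per library and the other lists hold pooled or single libraries.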
